A study of Mus musculus with 12 samples.

Results

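The interferon-stimulated genes described here are 10 genes listed by name, Isg15, Ifit1, Ifit2, Ifit3, Irf7, Mx1, Oasl2, Rsad2, Usp18 and Bst2, of the 31053 genes counted in each library. They were followed by cell class, fat depot and treatment group in single-cell RNA sequencing of the stromal vascular fraction (SVF), the non-adipocyte cells of fat, from epididymal (eWAT) and inguinal (iWAT) white adipose tissue of 12-week-old male mice. The 3 groups were C57BL/6 mice given vehicle (WT-Veh), Lepob/Lepob mice, which lack functional leptin and become obese, given vehicle (ob/ob-Veh), and Lepob/Lepob mice given rosiglitazone, a PPARγ agonist (ob/ob-Rosi). Rosiglitazone was gavaged at 30 mg/kg each morning and evening for 3 days, and the vehicle was methylcellulose diluted in culture medium. Each group had 2 libraries per depot, 12 in all, and no WT library with rosiglitazone is analysed here, so the drug and the ob/ob background cannot be separated in the comparison of ob/ob-Rosi with WT-Veh. Leptin is absent in every cell of the ob/ob mice, so effects on a cell class may be direct or may follow from obesity, and these cannot be told apart here.

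Type I interferons bind the IFNAR receptor, which nearly every nucleated cell carries, and signal through receptor-bound kinases to a promoter element, the interferon-stimulated response element (ISRE). Irf7 encodes a transcription factor that amplifies interferon production. Isg15 encodes a ubiquitin-like protein that is joined to other proteins, and Usp18 encodes the protease that removes it and also restrains the receptor. The other members are antiviral effectors. Ifit1, Ifit2 and Ifit3 encode proteins that bind foreign RNA or its partners, Oasl2 belongs to the oligoadenylate synthetase family, Rsad2 encodes viperin, Mx1 encodes a dynamin-like GTPase, and Bst2 encodes tetherin, which holds budding virions at the cell surface. C57BL/6 mice carry an internal deletion in Mx1, a property of the strain background of these groups.

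All 10 are protein-coding genes. In the mm10 (GRCm38) annotation, Isg15 spans chr4:156199424-156200818 (minus strand), Irf7 chr7:141262706-141266481 (minus strand), Oasl2 chr5:114896936-114912234 (plus strand), Usp18 chr6:121245906-121270917 (plus strand), Bst2 chr8:71534255-71537456 (minus strand), Rsad2 chr12:26442746-26456452 (minus strand) and Mx1 chr16:97447035-97462907 (minus strand). Ifit2 at chr19:34550694-34576419 (plus strand), Ifit3 at chr19:34583531-34588731 (plus strand) and Ifit1 at chr19:34640871-34650009 (plus strand) are neighbours on one chromosome. Ifit3 has a near-identical copy, Ifit3b, and Ifit1 has close relatives, so the counts of these members are uncertain where reads were shared. The RefSeq promoter table (GRCm38.p6, from 250 bases before to 50 after each start site) held 8 of the 10 members, all but Mx1 and Usp18. An ISRE core, written as GAAA repeated after any 2 bases and searched on both strands, was present in 5 of the 8, namely Isg15, Ifit1, Ifit3, Rsad2 and Bst2, and in 3.44% of the 32851 promoters of the table. These windows show where that letter pattern lies before the start sites, printed in the direction of the gene with the matched bases in capitals (where the capitals read TTTC, the core lies on the opposite strand).
Isg15: tgccgtagGAAAAGGAAAccgaaaca
Ifit1: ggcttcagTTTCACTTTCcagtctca
Ifit3: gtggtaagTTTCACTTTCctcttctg
Rsad2: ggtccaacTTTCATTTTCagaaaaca
Bst2: cattccagGAAAATGAAActgaaagg
The windows lie at chr4:156200879-156200904 (minus strand) for Isg15, chr19:34640777-34640802 (plus strand) for Ifit1, chr19:34583365-34583390 (plus strand) for Ifit3, chr12:26456555-26456580 (minus strand) for Rsad2 and chr8:71537585-71537610 (minus strand) for Bst2, outside the transcripts. The matched bases began 78, 104, 156, 120 and 130 bases before the respective start sites. Isg15 held 3 overlapping matches, and Ifit1, Ifit3 and Bst2 held 2 each. A STAT core, TTCNNNGAA, was present in Ifit2 and Bst2 and in 8.30% of promoters. A match describes the letters and is not evidence of binding.

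Cells were grouped into classes by clustering without the interferon genes and naming clusters from markers, and the suffix "-like" marks these rebuilt names. The classes include perivascular macrophages (PVM-like), lipid-associated macrophages (LAM-like), non-perivascular macrophages (NPVM-like), adipocyte progenitor cells (APC-like), endothelial cells (EC-like) and T, NK and innate lymphoid cells (NKT-like). A cluster led by Ear2 and Ccr2 did not meet the rule for a name and is called the Ear2 Ccr2 cluster. Whether its cells are macrophages was not tested. After filters, 57613 of 67341 barcodes from eWAT and 68482 of 72414 from iWAT remained, with library totals of 20132553 to 92475986 UMIs (unique molecular identifiers, each counting 1 captured transcript) and medians of 1132 to 4961 UMIs per cell. No pair of libraries shared over 1.05% of the barcodes of the smaller. The iWAT library of WT-Veh replicate 1 stood apart, with 7341 of its 17063 cells in an unnamed cluster that held 7450 cells in all. In iWAT, the APC class also holds cluster 16, which has Ace, a marker of the NPVM list, among its top 10 genes, and the T/NK class holds cluster 15, which has Ccr7, a marker of the dendritic cell list. Levels are given in CPM, the UMIs of a gene scaled to the same total in each class and library. Because the reads are 3′ UMIs and not length-scaled, levels of different genes were not ranked against each other.

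The members were detected in every one of the 12 libraries, with totals from 1681 UMIs for Mx1 to 60427 UMIs for Bst2. Summed over the 10 members, EC-like cells had the highest median over libraries of the classes in both depots, at 631 CPM (range 362 to 793 CPM) in eWAT and 693 CPM (range 260.1 to 1089.7 CPM) in iWAT. They were the highest class in 3 of 6 eWAT libraries and 5 of 6 iWAT libraries, the exceptions being both WT-Veh libraries and ob/ob-Veh replicate 2 of eWAT, led by mesothelial-like cells (493 and 750 CPM) or PVM-like cells (432 CPM), and WT-Veh replicate 1 of iWAT, led by neutrophil-like cells (275 CPM). In eWAT, mesothelial-like cells followed at 517 CPM (range 384 to 750 CPM) and overlapped with EC-like cells, PVM-like cells were at 273 CPM, APC-like cells at 165 CPM and LAM-like cells at 155 CPM. In iWAT, neutrophil-like cells followed at 294 CPM (4 libraries, range 190.2 to 455 CPM, on 10 to 45 UMIs), PVM-like cells had a median of 280.4 CPM and APC-like cells 271 CPM, and their ranges overlapped. B cells (BC-like) were lowest in iWAT at 101 CPM. Bst2 made up much of these sums, and single members ordered the classes differently. Oasl2 was highest in mesothelial-like cells of eWAT (median 196 CPM, range 116 to 321 CPM), Rsad2 in EC-like cells of both depots (156 CPM in eWAT and 251 CPM in iWAT), Mx1 in dendritic (DC-like) cells of eWAT (12.7 CPM, range 11.1 to 15.3 CPM) and Usp18 in APC-like cells of iWAT (23.8 CPM). These orders describe clusters of the same cells and were not tested.

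**Figure D1:**
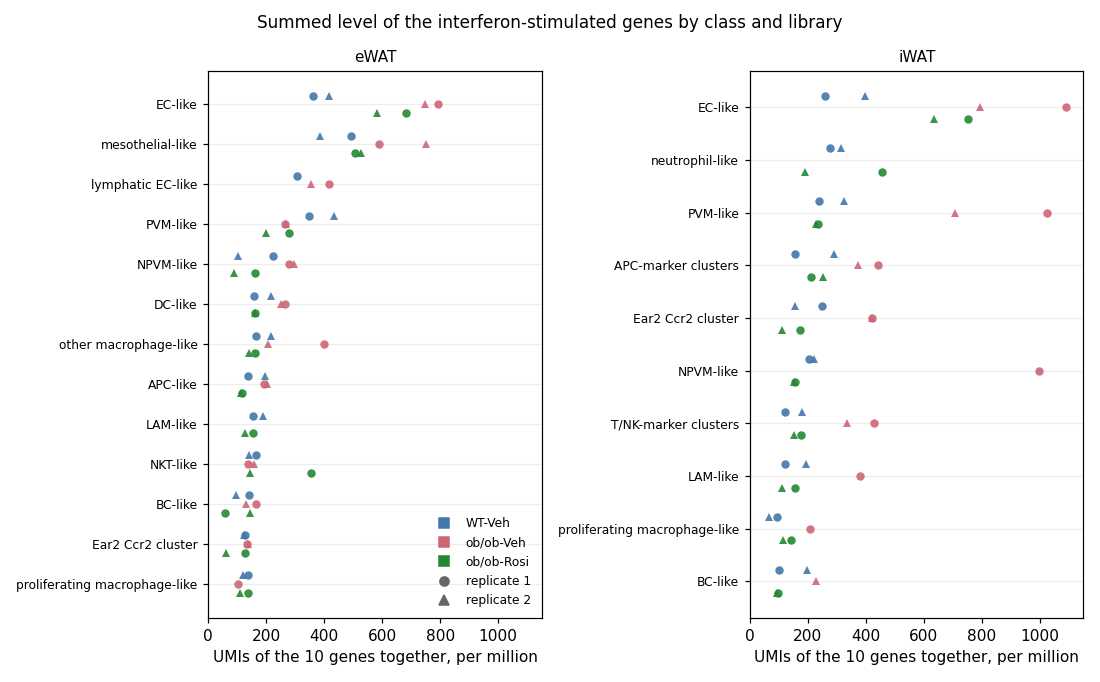
Summed level of the 10 genes in CPM of a class (horizontal axis) for each class of eWAT (left) and iWAT (right), with 1 point per library, coloured by group and shaped by replicate. In iWAT PVM-like cells the 2 ob/ob-Veh libraries (707 and 1025 CPM) lie to the right of the other 4 (228 to 324 CPM), and EC-like cells reach the highest sums of both depots.

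In iWAT, 4 of the 10 members were called higher in ob/ob-Veh than in WT-Veh mice in at least 1 class, and 8 were called lower after rosiglitazone. Over 5 classes with enough cells in all groups, 9 of 47 member tests were called higher and 0 were called lower in ob/ob-Veh against WT-Veh, where 1.44% of all gene tests were called higher and 1.24% lower, a share called the background in what follows. The median log2 difference of the members was 1.33 (44 of 47 above 0), and the median over all genes was -0.04. In ob/ob-Rosi against ob/ob-Veh, 15 of 47 were called lower and 0 higher, where 2.61% of all tests were called lower and 3.08% higher, with a member median of -1.41 (42 of 47 below 0) and an all-gene median of -0.00463. Of the 9 and 15 calls, 3 and 5, all in the Ear2 Ccr2 cluster, were of genes that passed the filter on low counts only through ob/ob-Veh, and 0 of the calls in PVM-like or EC-like cells were. A call means an adjusted p of at most 0.05 in edgeR's quasi-likelihood test over all genes of a class, with at least a 1.1-fold change. Each background is a share of such calls. No all-gene share is given for the counts at an unadjusted p under 0.05 or by DESeq2, so those counts are a description. Both comparisons use the same ob/ob-Veh libraries, so they are not independent of each other. In ob/ob-Rosi against WT-Veh, edgeR called 0 of 68 (background 0.0377%), with 4 at an unadjusted p under 0.05 and 1 called by DESeq2, and 34 lay above and 34 below 0.

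In PVM-like cells the fitted level of all 10 members was higher in ob/ob-Veh than in WT-Veh and lower after rosiglitazone, and 3 and 7 of them were called. The sum of the members was 237 and 324 CPM in WT-Veh, 1025 and 707 CPM in ob/ob-Veh and 236 and 228 CPM in ob/ob-Rosi, so both ob/ob-Veh libraries lay above the other 4. Among the effectors, Rsad2 was at 11.9 and 24 CPM in WT-Veh, 237 and 131 CPM in ob/ob-Veh and 19.3 and 13.4 CPM in ob/ob-Rosi. The ob/ob-Veh values did not overlap with those of either other group, and Rsad2 was 8.89-fold higher in ob/ob-Veh than in WT-Veh (log2 difference 3.15 ± 0.46 SE, edgeR adjusted p = 0.0108), and 10.1-fold lower after rosiglitazone (log2 difference -3.34 ± 0.46 SE, edgeR adjusted p = 0.0143). Oasl2 was at 18.9 and 31.8 CPM in WT-Veh, 186 and 141 CPM in ob/ob-Veh and 20.9 and 17.8 CPM in ob/ob-Rosi. The same 2 libraries were high, and Oasl2 was 5.66-fold higher in ob/ob-Veh (log2 difference 2.5 ± 0.34 SE, edgeR adjusted p = 0.00796) and 7.55-fold lower in ob/ob-Rosi (log2 difference -2.92 ± 0.34 SE, edgeR adjusted p = 0.00901). Ifit2 was at 1.94 and 6.86 CPM in WT-Veh, 41.4 and 29.7 CPM in ob/ob-Veh and 4.84 and 4.02 CPM in ob/ob-Rosi. The groups again did not overlap, with Ifit2 6.43-fold higher in ob/ob-Veh (log2 difference 2.68 ± 0.49 SE, edgeR adjusted p = 0.0254) and 7.18-fold lower in ob/ob-Rosi (log2 difference -2.84 ± 0.49 SE, edgeR adjusted p = 0.0207).

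The remaining PVM-like members were called in the rosiglitazone comparison alone or in neither. Ifit1, whose product recognises RNA lacking the host cap methylation, was at 1.94 and 13.5 CPM in WT-Veh, 64.7 and 36.5 CPM in ob/ob-Veh and 5.93 and 4.28 CPM in ob/ob-Rosi, and it was 8.94-fold lower after rosiglitazone (log2 difference -3.16 ± 0.69 SE, edgeR adjusted p = 0.0322). WT-Veh replicate 2 lay above both ob/ob-Rosi libraries, and all of these lay below ob/ob-Veh. Mx1 was at 5.0 and 9.05 CPM in WT-Veh, 25.9 and 25.1 CPM in ob/ob-Veh and 4.15 and 7.18 CPM in ob/ob-Rosi, and it was 3.92-fold lower after rosiglitazone (log2 difference -1.97 ± 0.40 SE, edgeR adjusted p = 0.0277). Usp18, the ISG15 protease, was at 3.06 and 9.27 CPM in WT-Veh, 24 and 23.9 CPM in ob/ob-Veh and 5.93 and 4.55 CPM in ob/ob-Rosi, and it was 4.08-fold lower (log2 difference -2.03 ± 0.46 SE, edgeR adjusted p = 0.0352). For both genes the ob/ob-Veh libraries lay above the other 4. The transcription factor gene Irf7 was at 23.9 and 28.7 CPM in WT-Veh, 73.6 and 50.6 CPM in ob/ob-Veh and 14.8 and 20.3 CPM in ob/ob-Rosi, with no overlap between ob/ob-Veh and either other group, and it was 3.14-fold lower after rosiglitazone (log2 difference -1.65 ± 0.32 SE, edgeR adjusted p = 0.025). Ifit3, at 3.06 and 15.3 CPM in WT-Veh, 29 and 32.8 CPM in ob/ob-Veh and 4.64 and 10.1 CPM in ob/ob-Rosi, and Bst2, at 149 and 151 CPM in WT-Veh, 295 and 207 CPM in ob/ob-Veh and 132 and 129 CPM in ob/ob-Rosi, had the same order without a call. Isg15 was at 18.3 and 34.8 CPM in WT-Veh, 47.5 and 29.5 CPM in ob/ob-Veh and 23.2 and 17.1 CPM in ob/ob-Rosi, and 1 WT-Veh library lay above 1 ob/ob-Veh library. In this class 3 of 10 members were called higher in ob/ob-Veh (background 3.46%), and 7 of 10 lower after rosiglitazone (background 4.55%). At an unadjusted p under 0.05 there were 8 and 9 of 10, with no all-gene share at that threshold beside them.

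**Figure D2:**
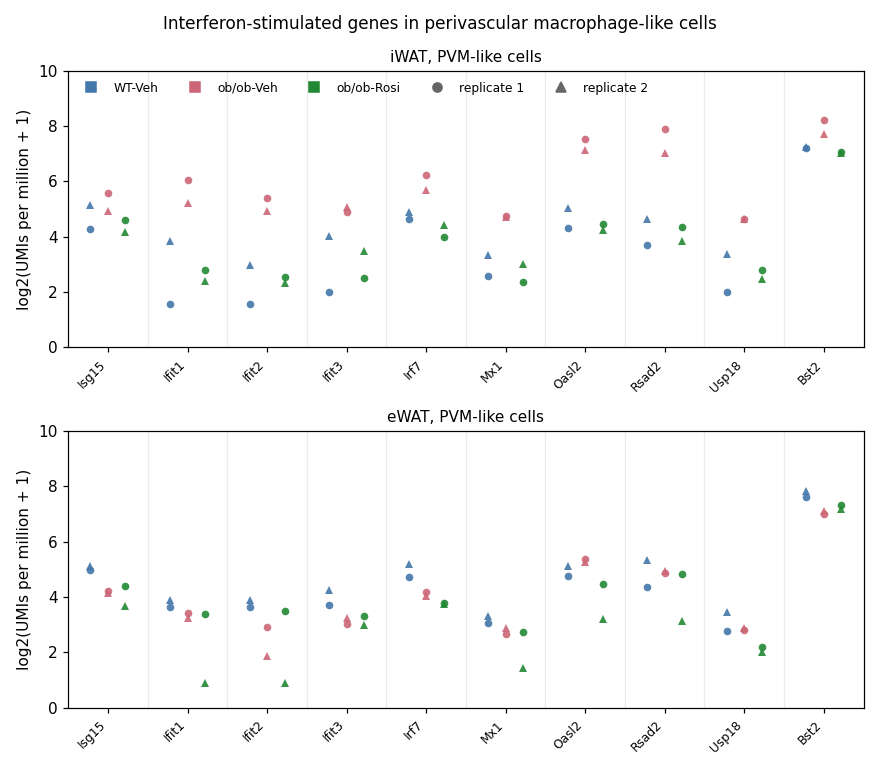
Level of each of the 10 genes in PVM-like cells as log2(CPM + 1) in iWAT (top) and eWAT (bottom), with 1 point per library, coloured by group and shaped by replicate. In iWAT the ob/ob-Veh points lie above all others for 9 of the 10 genes, with an overlap for Isg15. The share of all genes that separate in this way was not computed, so the 9 of 10 is a description and no support by itself. In eWAT the WT-Veh points are highest for Irf7 and Bst2.

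The PVM-like cells of ob/ob-Veh mice came mostly from another cluster than those of the other groups. Cluster 9, led by Mmp9, Cd209g and Cd209f and with Oas2, itself an interferon-responsive gene, among its top 10, held 2659 and 2006 cells of the ob/ob-Veh libraries, and 12, 3, 104 and 18 cells of WT-Veh and ob/ob-Rosi replicates 1 and 2 in turn. Within cluster 9, the member sum was 1020.2 and 708 CPM in ob/ob-Veh and 240.1 CPM in ob/ob-Rosi replicate 1. Within cluster 3, the PVM-like cluster with at least 20 cells of all 6 libraries, the sum was 235 and 333 CPM in WT-Veh, 1075 and 686 CPM in ob/ob-Veh and 239.7 and 308 CPM in ob/ob-Rosi, from 27 and 43 ob/ob-Veh cells. The order was therefore the same inside 1 cluster, with few ob/ob-Veh cells behind it. Cell quality and the RNA of other cells also moved with the group. Median UMIs per PVM-like cell were 3293 and 4680.0 in WT-Veh, 1680.0 and 1644 in ob/ob-Veh and 3452 and 2762 in ob/ob-Rosi, and the median mitochondrial share was 8.23 and 3.68% in WT-Veh, 11.1 and 9.82% in ob/ob-Veh and 4.83 and 2.28% in ob/ob-Rosi. The 8 APC markers summed to 839 and 891 CPM in WT-Veh, 5325 and 5271 CPM in ob/ob-Veh and 1901 and 2089.8 CPM in ob/ob-Rosi in PVM-like cells, with none of the 8 at 0 in any library, while the 7 PVM markers summed to 10575 and 9861 CPM in WT-Veh, 9889.8 and 11118 CPM in ob/ob-Veh and 9029.8 and 9166 CPM in ob/ob-Rosi. The part of these differences in the result was not tested. Markers of plasmacytoid dendritic cells, a main source of type I interferon, summed to 37.2 and 24.6 CPM in WT-Veh, 20.1 and 39 CPM in ob/ob-Veh and 25.4 and 26.3 CPM in ob/ob-Rosi in the same cells, and these groups overlapped. All 10 calls in iWAT PVM-like cells remained with every cell thinned to 700 UMIs, and with cells under 1500 UMIs or likely doublets left out.

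In the Ear2 Ccr2 cluster of iWAT 4 members were called higher in ob/ob-Veh and 8 lower after rosiglitazone, on few UMIs. Oasl2 was at 11.7 and 2.21 CPM in WT-Veh, 68.6 and 65.5 CPM in ob/ob-Veh and 3.87 and 3.24 CPM in ob/ob-Rosi, which rested on 7 and 10 UMIs in WT-Veh, 96 and 62 UMIs in ob/ob-Veh and 14 and 19 UMIs in ob/ob-Rosi. Both ob/ob-Veh libraries lay above all others, and Oasl2 was 12.3-fold higher in ob/ob-Veh than in WT-Veh (log2 difference 3.62 ± 0.55 SE, edgeR adjusted p = 0.00727) and 14-fold lower after rosiglitazone (log2 difference -3.8 ± 0.48 SE, edgeR adjusted p = 0.00531). Ifit1 was at 5.01 and 1.98 CPM in WT-Veh, 35.7 and 31.7 CPM in ob/ob-Veh and 2.21 and 2.72 CPM in ob/ob-Rosi and was 9.83-fold higher in ob/ob-Veh (log2 difference 3.3 ± 0.50 SE, edgeR adjusted p = 0.00727) and 9.82-fold lower after rosiglitazone (log2 difference -3.3 ± 0.43 SE, edgeR adjusted p = 0.00589). Rsad2, at 5.01 and 2.43 CPM in WT-Veh, 49.3 and 44.3 CPM in ob/ob-Veh and 5.25 and 6.47 CPM in ob/ob-Rosi, was 11.9-fold higher (log2 difference 3.58 ± 0.45 SE, edgeR adjusted p = 0.00396) and 5.82-fold lower (log2 difference -2.54 ± 0.36 SE, edgeR adjusted p = 0.00608) in the same comparisons. Neither gene overlapped between ob/ob-Veh and the other groups. Ifit2 was at 3.34 and 1.76 CPM in WT-Veh, 11.4 and 29.6 CPM in ob/ob-Veh and 1.38 and 2.55 CPM in ob/ob-Rosi. It was also called both ways, 7.08-fold higher in ob/ob-Veh (log2 difference 2.82 ± 0.70 SE, edgeR adjusted p = 0.0353) and 7.05-fold lower after rosiglitazone (log2 difference -2.82 ± 0.60 SE, edgeR adjusted p = 0.0128), the first lost with likely doublets removed (log2 difference 2.61, edgeR adjusted p = 0.0716). In all, 4 of 10 members were called higher in ob/ob-Veh (background 3.35%) and 8 of 10 lower after rosiglitazone (background 8.88%). Of these, Ifit1, Ifit2 and Oasl2 in the first comparison and Ifit1, Ifit2, Ifit3, Oasl2 and Usp18 in the second passed the filter on low counts only through ob/ob-Veh, the group where they were high, and had to differ, so these counts are no support by themselves. Without them 1 and 3 calls were left in this cluster, Rsad2 in both and Irf7 and Mx1 after rosiglitazone. All 12 calls were also made with no filter on low counts.

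Members called in the Ear2 Ccr2 cluster only after rosiglitazone were Irf7, Ifit3, Usp18 and Mx1. Irf7 was at 23.4 and 16.3 CPM in WT-Veh, 32.2 and 39.1 CPM in ob/ob-Veh and 4.42 and 7.83 CPM in ob/ob-Rosi and was 4.13-fold lower (log2 difference -2.05 ± 0.39 SE, edgeR adjusted p = 0.0099). Ifit3 was at 0 and 1.1 CPM in WT-Veh, 11.4 and 20.1 CPM in ob/ob-Veh and 0 and 2.21 CPM in ob/ob-Rosi, with 1 library at 0 in each group other than ob/ob-Veh (edgeR adjusted p = 0.0302). Usp18 was at 6.68 and 3.75 CPM in WT-Veh, 15 and 14.8 CPM in ob/ob-Veh and 3.59 and 1.87 CPM in ob/ob-Rosi and was 4.15-fold lower (log2 difference -2.05 ± 0.51 SE, edgeR adjusted p = 0.0216). Mx1 was at 20 and 4.85 CPM in WT-Veh, 32.9 and 26.4 CPM in ob/ob-Veh and 7.74 and 6.81 CPM in ob/ob-Rosi and was 3.04-fold lower (log2 difference -1.61 ± 0.46 SE, edgeR adjusted p = 0.0354). For all 4 genes the ob/ob-Veh libraries lay above those of both other groups. Ifit3 had 0 and 5 UMIs in WT-Veh, 16 and 19 UMIs in ob/ob-Veh and 0 and 13 UMIs in ob/ob-Rosi, its log2 difference ran from -7.78 to -2.30 over 15 alternatives, and its call was lost with the interferon genes used to cluster (edgeR adjusted p = 0.0799). DESeq2 called neither Usp18 (log2 difference -1.97, adjusted p = 0.0565) nor Mx1 (log2 difference -1.52, adjusted p = 0.0804), and the Mx1 call was also lost with cells thinned to 700 UMIs (log2 difference -1.43). Isg15 was at 36.7 and 30.7 CPM in WT-Veh, 54.3 and 61.2 CPM in ob/ob-Veh and 53.4 and 17.5 CPM in ob/ob-Rosi, with 1 ob/ob-Rosi library just below ob/ob-Veh, and Bst2, at 137 and 88.9 CPM in WT-Veh, 109 and 87.6 CPM in ob/ob-Veh and 91.8 and 57.7 CPM in ob/ob-Rosi, overlapped between groups. In this iWAT cluster the APC markers summed to 1159 and 1105 CPM in WT-Veh, 5718 and 5685 CPM in ob/ob-Veh and 1785 and 1835 CPM in ob/ob-Rosi and the PVM markers to 975 and 630.3 CPM in WT-Veh, 2489.9 and 2298 CPM in ob/ob-Veh and 876 and 902 CPM in ob/ob-Rosi, both highest in ob/ob-Veh. Median UMIs per cell were 2469.5 and 5933 in WT-Veh, 1682 and 1694 in ob/ob-Veh and 5419.5 and 4646 in ob/ob-Rosi, lowest in ob/ob-Veh, and the median mitochondrial share was 11.3 and 2.91% in WT-Veh, 12.8 and 11.7% in ob/ob-Veh and 3.96 and 1.94% in ob/ob-Rosi, highest in ob/ob-Veh. Their part in the result was not tested.

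In EC-like cells of iWAT, 2 of 9 members tested were called higher in ob/ob-Veh (background 0.501%). Rsad2 was at 38.6 and 75.2 CPM in WT-Veh, 404 and 290.3 CPM in ob/ob-Veh and 323 and 212 CPM in ob/ob-Rosi. Here ob/ob-Veh and ob/ob-Rosi overlapped and WT-Veh was below both, with Rsad2 4.92-fold higher in ob/ob-Veh than in WT-Veh (log2 difference 2.3 ± 0.40 SE, edgeR adjusted p = 0.0434). Ifit1, at 11 and 12.1 CPM in WT-Veh, 73.7 and 49.1 CPM in ob/ob-Veh and 27.4 and 21.3 CPM in ob/ob-Rosi, was 4.17-fold higher (log2 difference 2.06 ± 0.35 SE, edgeR adjusted p = 0.0433), and its ob/ob-Rosi values lay between those of the other groups. Bst2 was at 146 and 183 CPM in WT-Veh, 343 and 233 CPM in ob/ob-Veh and 284 and 259 CPM in ob/ob-Rosi, Ifit2 at 11.6 and 16.3 CPM in WT-Veh, 76.9 and 53.1 CPM in ob/ob-Veh and 20.4 and 16.3 CPM in ob/ob-Rosi and Oasl2 at 7.65 and 13.7 CPM in WT-Veh, 60.9 and 44 CPM in ob/ob-Veh and 18.5 and 16 CPM in ob/ob-Rosi. Oasl2 and Ifit2 were highest in both ob/ob-Veh libraries, and Bst2 overlapped between ob/ob-Veh and ob/ob-Rosi. After rosiglitazone edgeR called 0 of 9 lower than in ob/ob-Veh (background 0.159%, 3 at an unadjusted p under 0.05, 1 called by DESeq2), and the lowest adjusted p belonged to Ifit2 (log2 difference -1.48 ± 0.35 SE, edgeR adjusted p = 0.0951). Against WT-Veh, Rsad2 in EC-like cells of ob/ob-Rosi had the lowest adjusted p of that comparison (log2 difference 2.23 ± 0.40 SE, edgeR adjusted p = 0.0906). The library of ob/ob-Veh replicate 1 held only 110 EC-like cells, and both calls were lost when cells were thinned to 700 UMIs or likely doublets were removed. The log2 differences were then 2.45 and 2.27 for Rsad2 and 2.45 and 2.00 for Ifit1. Median UMIs per EC-like cell of iWAT were 1254 and 4843 in WT-Veh, 2339.5 and 2068 in ob/ob-Veh and 4276 and 2966 in ob/ob-Rosi, with ob/ob-Veh overlapping WT-Veh and below both ob/ob-Rosi libraries. Median mitochondrial shares were 4.0 and 3.91% in WT-Veh, 5.75 and 3.51% in ob/ob-Veh and 3.74 and 2.67% in ob/ob-Rosi, with ob/ob-Veh overlapping both other groups. The part of the depth difference in the result was not tested. The APC markers summed to 3282 and 1922 CPM in WT-Veh, 5365 and 5246 CPM in ob/ob-Veh and 1814 and 3222 CPM in ob/ob-Rosi in these cells, highest in ob/ob-Veh, and their part in the result was not tested.

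In the iWAT clusters with APC markers (2, 14, 16 and 17), all 10 members were higher in ob/ob-Veh than in WT-Veh and lower after rosiglitazone, and edgeR called none in either comparison (background 0.110% higher and 0.265% lower), though 4 and 5 of 10 had an unadjusted p under 0.05 and DESeq2 called 2 and 3. Rsad2 had the lowest adjusted p in both, with 5.52 and 3.88 CPM in WT-Veh, 24.1 and 21 CPM in ob/ob-Veh and 9.64 and 5.63 CPM in ob/ob-Rosi. The ob/ob-Veh libraries did not overlap with the others (log2 difference 2.28 ± 0.38 SE, edgeR adjusted p = 0.0665 against WT-Veh, and log2 difference -1.49 ± 0.34 SE, edgeR adjusted p = 0.0792 after rosiglitazone). Usp18, which had its highest median iWAT level in these cells, was at 7.52 and 30.4 CPM in WT-Veh, 40.6 and 48.2 CPM in ob/ob-Veh and 14 and 17.1 CPM in ob/ob-Rosi, with WT-Veh spread widely between its libraries. Its level differed by cluster, at 6.36 and 9.52 CPM in WT-Veh, 14.1 and 16.2 CPM in ob/ob-Veh and 4.69 and 5.62 CPM in ob/ob-Rosi in cluster 2 and 10.9 and 40.5 CPM in WT-Veh, 44.4 and 57.9 CPM in ob/ob-Veh and 28.1 and 25.6 CPM in ob/ob-Rosi in cluster 14, so within each of these clusters the ob/ob-Veh libraries were above the others. Median UMIs per APC-like cell of iWAT were 3984 and 5132 in WT-Veh, 2848 and 2198 in ob/ob-Veh and 3667 and 3480.0 in ob/ob-Rosi, lowest in ob/ob-Veh, with median mitochondrial shares of 6.67 and 2.55% in WT-Veh, 5.48 and 7.28% in ob/ob-Veh and 5.87 and 1.85% in ob/ob-Rosi that overlapped between groups, and the 7 PVM markers summed to 326 and 111 CPM in WT-Veh, 589 and 553 CPM in ob/ob-Veh and 162 and 144 CPM in ob/ob-Rosi, highest in ob/ob-Veh. Their part in the result was not tested. In T/NK-marker clusters (7, 15 and 18) edgeR called 0 of 8 both ways (background 0% higher and 0% lower, with 3 tests in each at an unadjusted p under 0.05, 2 and 0 by DESeq2). Oasl2 was at 5.36 and 4.2 CPM in WT-Veh, 57.8 and 67.6 CPM in ob/ob-Veh and 12.9 and 5.74 CPM in ob/ob-Rosi there, resting on 21 and 17 UMIs in WT-Veh, 10 and 17 UMIs in ob/ob-Veh and 12 and 14 UMIs in ob/ob-Rosi, with ob/ob-Veh above the other libraries (log2 difference 3.26 ± 0.58 SE, edgeR adjusted p = 0.0868 against WT-Veh), and Rsad2 had the lowest adjusted p after rosiglitazone (log2 difference -2.78 ± 0.57 SE, edgeR adjusted p = 0.0855). Median UMIs per cell of these clusters were 1229 and 2379 in WT-Veh, 1014 and 959.5 in ob/ob-Veh and 1180.0 and 1822 in ob/ob-Rosi, again lowest in ob/ob-Veh, with median mitochondrial shares of 12.4 and 3.61% in WT-Veh, 11.8 and 11.3% in ob/ob-Veh and 8.25 and 2.62% in ob/ob-Rosi. The APC markers summed to 1816 and 4041 CPM in WT-Veh, 10429.8 and 10489 CPM in ob/ob-Veh and 5705 and 7293 CPM in ob/ob-Rosi there and the PVM markers to 658 and 757 CPM in WT-Veh, 3032 and 1527 CPM in ob/ob-Veh and 581 and 1005 CPM in ob/ob-Rosi, both highest in ob/ob-Veh. The part of these differences in the T/NK-marker result was not tested.

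**Figure D3:**
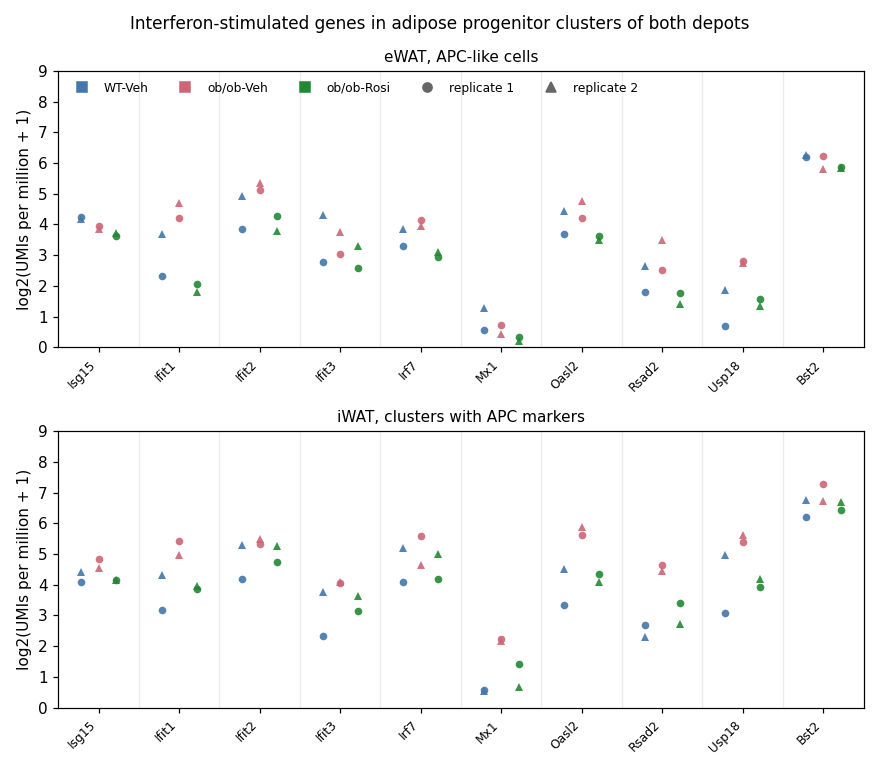
Level of each of the 10 genes as log2(CPM + 1) in APC-like cells of eWAT (top) and clusters with APC markers of iWAT (bottom), with 1 point per library, coloured by group and shaped by replicate. Usp18 is at 0.625 to 6.03 CPM in eWAT and 7.52 to 48.2 CPM in iWAT, the depots not overlapping.

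With 2 libraries per group, single libraries decided the calls in iWAT. Their direction stayed the same, but where the libraries of 2 groups did not overlap this was largely fixed in advance and is no support. Without ob/ob-Veh replicate 1, the log2 differences of the 9 calls ran from 1.82 to 3.45 with edgeR adjusted p from 0.0706 to 0.428, so that none remained, and those of the 15 calls ran from -3.63 to -1.29 with adjusted p from 0.077 to 0.271, again with none remaining. Without ob/ob-Veh replicate 2, 3 of the 9 and 1 of the 15 remained. Without ob/ob-Rosi replicate 1 or 2, 7 and 5 of the 15 remained. Without WT-Veh replicate 1, the library that stood apart, all 9 and all 15 remained, and without WT-Veh replicate 2, 8 of the 9 and all 15 did. Without either WT-Veh library more member tests were called in all than the 9 and 15 reported, and the share of all genes called in those fits is not given here.

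In eWAT, 3 of the 10 members were called higher in ob/ob-Veh than in WT-Veh mice, all in EC-like cells, and 5 were called lower after rosiglitazone. Over 10 classes, 3 of 68 member tests were called higher and 1 lower in ob/ob-Veh than in WT-Veh (background 1.78% and 2.19%), and the member median log2 difference was 0.25 against -0.01 over all genes. After rosiglitazone 5 of 68 were called lower and 0 higher (background 1.74% and 2.22%), with medians of -0.43 and 0.01. In ob/ob-Rosi against WT-Veh edgeR called 0 of 83 (background 0.0655%), with 14 at an unadjusted p under 0.05 and 1 called by DESeq2, and 53 of 83 lay below 0, with a member median of -0.30 against 0.01 over all genes. In PVM-like cells all 10 members were lower in ob/ob-Rosi than in WT-Veh in that comparison (median -1.01), 6 of them at an unadjusted p under 0.05 and all with an edgeR adjusted p of 1. The lowest adjusted p was that of Rsad2 in EC-like cells (log2 difference 1.28 ± 0.35 SE, edgeR adjusted p = 0.157). With the replicate number as a block, 15 member tests were called in ob/ob-Veh against WT-Veh of eWAT in place of 4, and 12 after rosiglitazone in place of 5. The share of all genes called under that block is not given here, so these counts cannot be read as particular to the members. Same-numbered eWAT libraries deviated together, with correlations over 0.1 for all 3 pairs of groups, in 5 of 10 classes, and the labels do not say what a number shares, so whether the numbers pair the libraries is not known.

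EC-like cells of eWAT held the 3 members called higher in ob/ob-Veh (3 of 9 tested, background 3.09%), and 2 of 9 were called lower after rosiglitazone (background 1.99%). Ifit2 was at 9.37 and 16.4 CPM in WT-Veh, 56.2 and 37 CPM in ob/ob-Veh and 15.8 and 11.8 CPM in ob/ob-Rosi. The ob/ob-Veh libraries lay above the rest, and Ifit2 was 3.15-fold higher in ob/ob-Veh (log2 difference 1.65 ± 0.37 SE, edgeR adjusted p = 0.020) and 3.27-fold lower after rosiglitazone (log2 difference -1.71 ± 0.35 SE, edgeR adjusted p = 0.0142). Oasl2, at 9.37 and 14.2 CPM in WT-Veh, 29.3 and 32.7 CPM in ob/ob-Veh and 13.8 and 12.1 CPM in ob/ob-Rosi, was 2.37-fold higher (log2 difference 1.24 ± 0.34 SE, edgeR adjusted p = 0.0455) and 2.33-fold lower (log2 difference -1.22 ± 0.32 SE, edgeR adjusted p = 0.0467) in the same comparisons. Ifit1 was at 12.9 and 15.1 CPM in WT-Veh, 38.6 and 41.3 CPM in ob/ob-Veh and 20.4 and 22.5 CPM in ob/ob-Rosi, without overlap between ob/ob-Veh and either other group, and was 2.65-fold higher in ob/ob-Veh (log2 difference 1.4 ± 0.31 SE, edgeR adjusted p = 0.0203), with no call after rosiglitazone. Rsad2 did not follow this order and was at 52.7 and 102 CPM in WT-Veh, 179 and 203 CPM in ob/ob-Veh and 265 and 133 CPM in ob/ob-Rosi, where 1 ob/ob-Rosi library was the highest of the 6. The Oasl2 calls were lost under 7 and 9 of 15 alternatives, DESeq2 and doublet removal among them in both comparisons (log2 differences of 1.05 to 1.62 in the first, and no change of direction in either). With cells thinned to 700 UMIs, the calls of Ifit1 (log2 difference 2.21, edgeR adjusted p = 0.0801) and Ifit2 (log2 differences 1.43 and -2.08, edgeR adjusted p = 0.291 and 0.151) were lost as well. Median UMIs per EC-like cell of eWAT were 1788 and 3297.5 in WT-Veh, 4190 and 4144.5 in ob/ob-Veh and 2408 and 3023 in ob/ob-Rosi, highest in ob/ob-Veh. The median mitochondrial share of these cells was 2.96 and 3.11% in WT-Veh, 4.17 and 6.02% in ob/ob-Veh and 3.37 and 3.66% in ob/ob-Rosi and the APC markers summed to 2937 and 2361 CPM in WT-Veh, 3295 and 3352 CPM in ob/ob-Veh and 2259.7 and 2216 CPM in ob/ob-Rosi, both highest in ob/ob-Veh. The part of these differences in the result was not tested.

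APC-like cells of eWAT held 2 of 9 members called lower after rosiglitazone (background 3.64%). Ifit1 was at 4.06 and 11.8 CPM in WT-Veh, 17.3 and 24.9 CPM in ob/ob-Veh and 3.18 and 2.51 CPM in ob/ob-Rosi, with both ob/ob-Rosi libraries below the other 4, and was 7.19-fold lower (log2 difference -2.85 ± 0.43 SE, edgeR adjusted p = 0.00331). Rsad2 was at 2.5 and 5.29 CPM in WT-Veh, 4.69 and 10.2 CPM in ob/ob-Veh and 2.38 and 1.67 CPM in ob/ob-Rosi. It was 3.51-fold lower (log2 difference -1.81 ± 0.48 SE, edgeR adjusted p = 0.0403), and WT-Veh overlapped with ob/ob-Veh. The Rsad2 call was lost under 7 of 16 alternatives, scaling by library size, thinning to 700 UMIs and doublet removal among them (log2 differences of -2.19 to -1.26). Most APC-like cells of ob/ob-Veh eWAT came from clusters 10 and 25 (1752 and 1879 cells, and 1421 and 491 cells, of the 2 libraries), which held 3 to 46 and 2 to 36 cells of each other library. Median UMIs per APC-like cell of eWAT were 1340.0 and 3831 in WT-Veh, 6613 and 4819 in ob/ob-Veh and 2325 and 4693 in ob/ob-Rosi, highest in ob/ob-Veh, and median mitochondrial shares were 4.77 and 3.47% in WT-Veh, 3.58 and 5.26% in ob/ob-Veh and 6.11 and 2.99% in ob/ob-Rosi, which overlapped. The 6 mesothelial markers summed to 50 and 53.2 CPM in WT-Veh, 175 and 179 CPM in ob/ob-Veh and 56.4 and 35.2 CPM in ob/ob-Rosi, highest in ob/ob-Veh, with 0 to 2 of them at 0 in a library, and the macrophage lineage markers to 2489.5 and 1554 CPM in WT-Veh, 329 and 557 CPM in ob/ob-Veh and 1861 and 1949.7 CPM in ob/ob-Rosi, lowest in ob/ob-Veh. Their part in the result was not tested. In the Ear2 Ccr2 cluster of eWAT, where only Isg15 and Bst2 had enough counts, Isg15 was at 23.6 and 36.5 CPM in WT-Veh, 43.3 and 53 CPM in ob/ob-Veh and 11.4 and 15.1 CPM in ob/ob-Rosi, and it was 3.48-fold lower after rosiglitazone (log2 difference -1.8 ± 0.36 SE, edgeR adjusted p = 0.00221) (1 of 2 called, background 4.41%). The ob/ob-Veh libraries lay above all others. The call was lost with cells thinned to 700 UMIs (log2 difference -0.71, edgeR adjusted p = 0.599) and with the interferon genes used to cluster (log2 difference -1.16, edgeR adjusted p = 0.0517).

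In PVM-like cells of eWAT, 9 of 10 members lay below 0 in ob/ob-Veh against WT-Veh, with a median log2 difference of -0.70, and 1 was called lower (background 2.05%). Irf7 was at 25.6 and 35.4 CPM in WT-Veh, 17 and 15.5 CPM in ob/ob-Veh and 12.7 and 12.5 CPM in ob/ob-Rosi. WT-Veh lay above both ob/ob groups, and Irf7 was 2.02-fold lower in ob/ob-Veh (log2 difference -1.02 ± 0.24 SE, edgeR adjusted p = 0.0481). Bst2 was at 197 and 225 CPM in WT-Veh, 126 and 138 CPM in ob/ob-Veh and 158 and 146 CPM in ob/ob-Rosi, with WT-Veh also highest. Oasl2, at 26.4 and 34 CPM in WT-Veh, 40.3 and 37.1 CPM in ob/ob-Veh and 21.1 and 8.2 CPM in ob/ob-Rosi, was the 1 member above 0, and after rosiglitazone edgeR called 0 of 10 lower (background 0.968%, 1 at an unadjusted p under 0.05, 1 by DESeq2), with Oasl2 at the lowest adjusted p (log2 difference -1.23 ± 0.34 SE, edgeR adjusted p = 0.0811). As in iWAT, ob/ob-Veh cells of this class sat in their own cluster, 15, with 1884 and 1849 cells, which held 1 to 31 cells of each other library. The APC markers summed to 1803 and 1032 CPM in WT-Veh, 1435 and 1641 CPM in ob/ob-Veh and 1343 and 1082 CPM in ob/ob-Rosi in these cells and the groups overlapped. In mesothelial-like cells of eWAT, the class with the highest Oasl2, that gene was at 159 and 116 CPM in WT-Veh, 251 and 321 CPM in ob/ob-Veh and 171 and 221 CPM in ob/ob-Rosi, with ob/ob-Veh above the other libraries. No member was called there in either comparison (background 3.20% and 2.08%, 1 and 0 of 8 at an unadjusted p under 0.05 in edgeR, 0 and 0 by DESeq2).

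Of the 9 calls in classes of eWAT, 8 were each lost in at least 1 of 6 fits that left out a single library. The Isg15 call in the Ear2 Ccr2 cluster remained in 6 of 6 such fits, and the Ifit1 call in APC-like cells in 5 of 6, being lost without ob/ob-Rosi replicate 2. Of the 4 calls in ob/ob-Veh against WT-Veh, 0 remained in the edgeR fit without WT-Veh replicate 1 (log2 differences of -1.21 to 1.41 and adjusted p of 0.109 to 0.222), 1 without WT-Veh replicate 2, 0 without ob/ob-Veh replicate 1 (log2 differences of -1.10 to 1.43 and adjusted p of 0.0654 to 0.214) and 1 without ob/ob-Veh replicate 2. Of the 5 calls after rosiglitazone, 4 and 1 remained without ob/ob-Rosi replicates 1 and 2, and 2 and 3 without ob/ob-Veh replicates 1 and 2, with log2 differences of -2.68 to -1.13 and adjusted p of 0.00695 to 0.299 where fewest remained. Without ob/ob-Rosi replicate 1 or 2, 9 and 8 members in all were called in the first comparison in place of 4, and without ob/ob-Rosi replicate 1, 8 in the second in place of 5. The Irf7 call in PVM-like cells was lost under 10 of 16 alternatives, DESeq2 and scaling by library size among them, with log2 differences of -1.21 to -0.79.

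**Figure D4:**
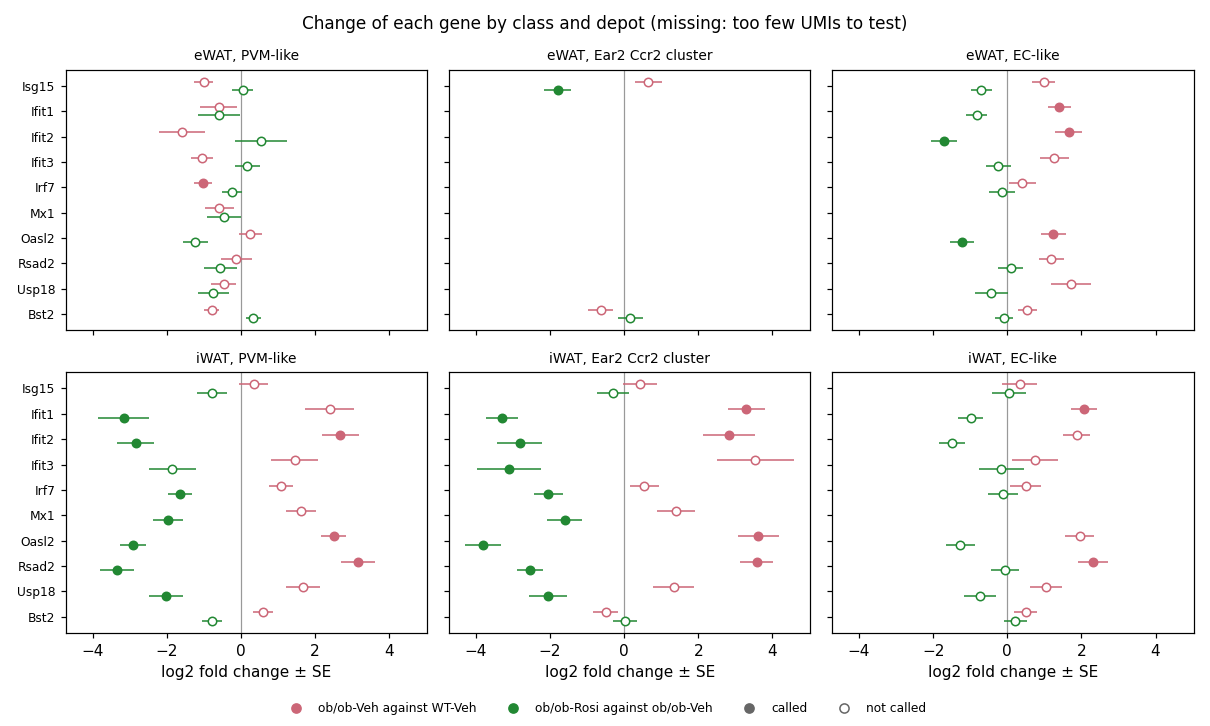
Log2 fold change from edgeR, with a standard error derived from its F statistic, for each of the 10 genes in 3 classes (columns) of eWAT (top) and iWAT (bottom). Shown are ob/ob-Veh against WT-Veh and ob/ob-Rosi against ob/ob-Veh, with filled points for called genes and no point where counts were too low to test. In iWAT PVM-like cells all 10 genes lie above 0 in the first comparison and below 0 in the second, which share the ob/ob-Veh libraries.

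The difference between depots was tested in a fit of all 12 libraries taken as separate samples. The labels do not say whether an eWAT and an iWAT library of one group and number came from the same mouse. With 1 block per group and number shared by the depots, an alternative chosen after seeing the data, 19 calls were made over both depot differences in place of 1, and 22 for iWAT against eWAT in place of 12. No share of all genes called under this shared block is given beside them. For ob/ob-Veh against WT-Veh, 1 of 49 member tests was called, with a larger difference in iWAT (background 0.226% higher in iWAT). It was Irf7 in PVM-like cells, where the log2 difference in iWAT exceeded that in eWAT by 2.05 ± 0.39 (SE, edgeR adjusted p = 0.0439). All 10 members had the larger difference in iWAT PVM-like cells, with log2 excesses of 1.31 to 4.23. Each had an unadjusted p under 0.05, a threshold for which no all-gene share is given. Only 1 of the 10 was called (background 0.445%). The Irf7 call was lost under 9 of the 12 single-library omissions, where the excess ran from 1.72 to 2.38 and the adjusted p reached 0.191. Without iWAT WT-Veh replicate 1 or 2, 3 and 9 calls were made in all over both depot differences, and without eWAT ob/ob-Rosi replicate 2, 2. For ob/ob-Rosi against ob/ob-Veh, edgeR called 0 of 49 (background 0.0634%), with 16 at an unadjusted p under 0.05 and 1 called by DESeq2, and Rsad2 in the Ear2 Ccr2 cluster had the lowest adjusted p (log2 difference -3.73 ± 0.75 SE, edgeR adjusted p = 0.0568). The iWAT matrices held only cells under 22000 UMIs and 25% mitochondrial reads as deposited, and the eWAT matrices did not, so the same limits were set on both.

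Averaged over the 3 groups, 12 of 78 member tests were called higher in iWAT than in eWAT and 0 lower (background 2.70% and 2.20%). In APC-like cells 8 of 10 were called higher in iWAT (background 8.87%). Usp18 stood out there, at 0.625 and 2.64 CPM in WT-Veh, 6.03 and 5.75 CPM in ob/ob-Veh and 1.98 and 1.52 CPM in ob/ob-Rosi of eWAT, against 7.52 and 30.4 CPM in WT-Veh, 40.6 and 48.2 CPM in ob/ob-Veh and 14 and 17.1 CPM in ob/ob-Rosi of iWAT. Every iWAT library lay above every eWAT library, and Usp18 was 9.8-fold higher in iWAT (log2 difference 3.29 ± 0.34 SE, edgeR adjusted p = 5.66e-05). The iWAT class joins clusters that differ in Usp18. Cluster 2, at 4.69 to 16.2 CPM, overlapped with the eWAT class and lay above its eWAT group in each of the 3 groups, and cluster 14, at 10.9 to 57.9 CPM, lay above all eWAT libraries. Irf7 (2.78-fold higher, log2 difference 1.47 ± 0.27 SE, edgeR adjusted p = 0.00267), Ifit1 (2.63-fold higher, log2 difference 1.39 ± 0.27 SE, edgeR adjusted p = 0.00367) and Rsad2 (2.48-fold higher, log2 difference 1.31 ± 0.25 SE, edgeR adjusted p = 0.00387) followed. Mx1 (2.73-fold higher, log2 difference 1.45 ± 0.45 SE, edgeR adjusted p = 0.048), Oasl2 (1.68-fold higher, log2 difference 0.75 ± 0.21 SE, edgeR adjusted p = 0.0295), Bst2 (1.66-fold higher, log2 difference 0.73 ± 0.18 SE, edgeR adjusted p = 0.0167) and Isg15 (1.45-fold higher, log2 difference 0.53 ± 0.15 SE, edgeR adjusted p = 0.0322) were also called. Mx1 had too few counts in APC-like cells of eWAT to be tested there (at most 1.44 CPM). Its call, part of the 8, is therefore a description and no support by itself. The calls of Usp18, Irf7, Ifit1 and Rsad2 remained under all 18 alternatives tried, and that of Bst2 under 15 of 18. Those of Oasl2 (8 of 18, log2 differences of 0.41 to 0.89), Isg15 (7 of 18, 0.16 to 0.60) and Mx1 (6 of 17, 1.17 to 1.77) were lost under most. Of the 12 calls, 5 to 10 remained in the 12 fits that each left out 1 library, with unchanged direction and with the fewest, 5, without eWAT ob/ob-Veh replicate 2 or iWAT ob/ob-Veh replicate 1. Without WT-Veh replicate 1, ob/ob-Rosi replicate 2 or any ob/ob-Veh library of eWAT, or without ob/ob-Rosi replicate 1 or ob/ob-Veh replicate 1 or 2 of iWAT, 5 to 7 were called in all. In the Ear2 Ccr2 cluster 3 of 10 were called (background 6.21%), namely Irf7 (3.72-fold higher, log2 difference 1.89 ± 0.34 SE, edgeR adjusted p = 0.00211), Usp18 (3.17-fold higher, log2 difference 1.67 ± 0.49 SE, edgeR adjusted p = 0.0395) and Rsad2 (2.99-fold higher, log2 difference 1.58 ± 0.46 SE, edgeR adjusted p = 0.0377). These 3 genes had too few counts in that cluster of eWAT to be tested there. Whether they passed the filter on low counts of the 12-library fit only through iWAT, where they were high, was not tested. These 3 calls, part of the 12, are therefore a description and no support by themselves. The Irf7 call in that cluster was lost with cells thinned to 700 UMIs (log2 difference 1.14, edgeR adjusted p = 0.284). Usp18 kept its call under 6 of 17 alternatives and Rsad2 under 8 of 17. In NKT-like cells Oasl2 was the 1 of 10 called (3.1-fold higher, log2 difference 1.63 ± 0.36 SE, edgeR adjusted p = 0.0339, background 0.766%), and it kept its call under 8 of 18 alternatives. In PVM-like and EC-like cells edgeR called 0 of 10 and 0 of 9 (background 1.75% and 0.839%), with 4 and 0 at an unadjusted p under 0.05 and 2 and 0 called by DESeq2. Depot and any difference in handling between the depots' libraries cannot be told apart.

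Counting cells showed how widely the UMIs of the members were spread. With each cell thinned to 1500 UMIs and shallower cells left out, the share of iWAT PVM-like cells with UMIs of at least 3 of the 10 members was 0.829 and 1.61% in WT-Veh, 11.7 and 7.72% in ob/ob-Veh and 0.67 and 0.609% in ob/ob-Rosi. In ob/ob-Veh replicate 1 this was 186 of 1596 cells, 11.7% with an exact 95% binomial interval of 10.1 to 13.3%, and in replicate 2 91 of 1178 cells, 7.72% with an exact 95% binomial interval of 6.26 to 9.4%, intervals that cover counting error only. Unthinned, the shares were 3.92 and 7.84% in WT-Veh, 15.9 and 11.3% in ob/ob-Veh and 4.31 and 2.42% in ob/ob-Rosi. The ob/ob-Veh libraries were highest both ways and had the lowest median UMIs per cell. Thinned cells with no UMI of any member made up 73.2 and 70.3% in WT-Veh, 36.3 and 44.5% in ob/ob-Veh and 73.5 and 75.7% in ob/ob-Rosi. In EC-like cells of iWAT the thinned share was 0.107 and 2.04% in WT-Veh, 15.8 and 6.33% in ob/ob-Veh and 4.38 and 3.99% in ob/ob-Rosi, and the unthinned share was 1.67 and 19.5% in WT-Veh, 20.9 and 15.6% in ob/ob-Veh and 24.9 and 17.8% in ob/ob-Rosi. The order of the groups thus depended on thinning in EC-like cells, and ob/ob-Veh replicate 1 gave 76 cells to the thinned share. In eWAT PVM-like cells the thinned share was 1.51 and 3.0% in WT-Veh, 1.32 and 0.848% in ob/ob-Veh and 1.69 and 0% in ob/ob-Rosi, with an upper bound of 0.758% for the 0 of 485 cells of ob/ob-Rosi replicate 2, and the unthinned share was 2.34 and 11.4% in WT-Veh, 3.95 and 5.45% in ob/ob-Veh and 2.29 and 1.56% in ob/ob-Rosi. In eWAT EC-like cells the thinned share was 0.93 and 2.19% in WT-Veh, 11.6 and 4.57% in ob/ob-Veh and 3.41 and 4.0% in ob/ob-Rosi, and the unthinned share was 2.43 and 12.6% in WT-Veh, 35.8 and 34.2% in ob/ob-Veh and 10.4 and 18% in ob/ob-Rosi. Nearly every cell type can express these genes, so no class served as a background. Proliferating macrophages of iWAT had no such cell in the 5 libraries with at least 20 of these cells (30 to 198 thinned cells each), and ob/ob-Veh replicate 2, with 14 cells, was left out. These shares are given as a description, with no test.

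**Figure D5:**
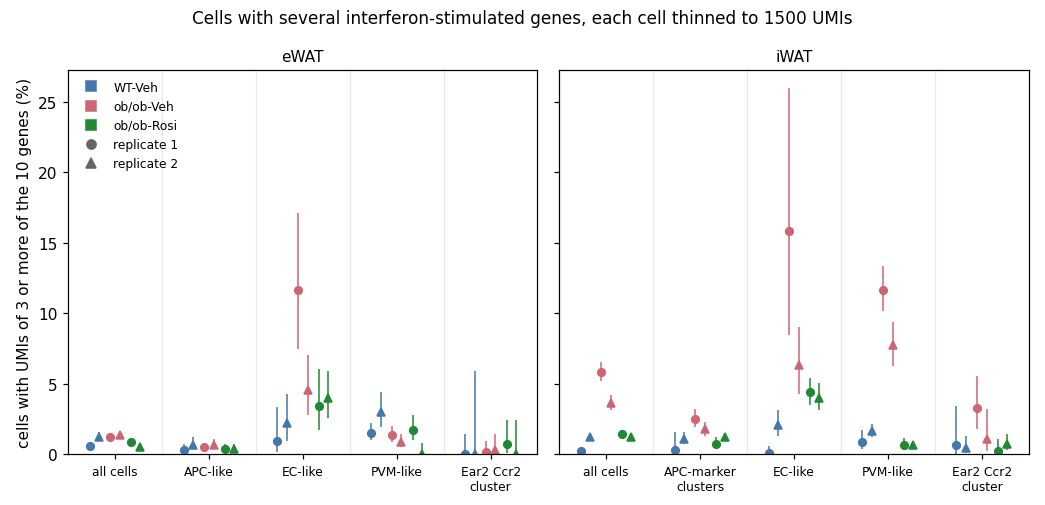
Percent of cells with UMIs of at least 3 of the 10 genes after thinning each cell to 1500 UMIs, by class in eWAT (left) and iWAT (right), with 1 point per library and exact 95% binomial intervals that cover counting error only. In iWAT PVM-like cells the 2 ob/ob-Veh libraries are at 11.7 and 7.72%, and the other 4 are at 0.609 to 1.61%.

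A wider list of 124 interferon genes, covering ligands, receptors, signalling, sensors, ISG15 conjugation, further effectors and interferon-gamma-leaning genes, was read from the same fits. In iWAT, 36 of 477 tests were called higher and 3 lower in ob/ob-Veh against WT-Veh (background 1.44% and 1.24%), and 10 higher and 73 lower after rosiglitazone (background 3.08% and 2.61%), with list medians of 0.50 and -0.62 on the log2 scale, beside -0.04 and -0.00463 over all genes. The effectors made up 25 of the 36, and 42 of the 73 (216 tests). ISG15 conjugation genes had 2 of 15 called higher and 4 of 15 called lower in the 2 comparisons, sensors 1 and 4 of 54, signalling genes 2 and 8 of 65, and interferon-gamma-leaning genes 6 and 15 of 101. In the opposite direction, interferon-gamma-leaning genes had 2 called lower in ob/ob-Veh (1.98%) and 6 higher after rosiglitazone (5.94%). Signalling genes had 1 and 1 such calls, and effectors 0 and 3. Of the receptors edgeR called 0 of 25 in both (1 and 0 at an unadjusted p under 0.05). Ifi213, a DNA-binding HIN-200 family gene, was at 2.5 and 5.11 CPM in WT-Veh, 97.2 and 78.3 CPM in ob/ob-Veh and 3.26 and 2.7 CPM in ob/ob-Rosi in PVM-like cells, with ob/ob-Veh far above the other libraries (log2 difference 4.23 ± 0.38 SE, edgeR adjusted p = 0.0021). Ifi44, an effector, was at 0.833 and 0.365 CPM in WT-Veh, 37.3 and 20 CPM in ob/ob-Veh and 0.296 and 0.329 CPM in ob/ob-Rosi (log2 difference 5.68 ± 0.56 SE, edgeR adjusted p = 0.00262), and Iigp1, a GTPase gene induced by interferon, was at 4.44 and 9.63 CPM in WT-Veh, 65.6 and 76.9 CPM in ob/ob-Veh and 8.59 and 4.81 CPM in ob/ob-Rosi (log2 difference 3.07 ± 0.42 SE, edgeR adjusted p = 0.00796). After rosiglitazone the lowest adjusted p values lay in the Ear2 Ccr2 cluster, for Oas2, an oligoadenylate synthetase gene (log2 difference -4.11 ± 0.56 SE, edgeR adjusted p = 0.00589), Ifi213 (log2 difference -4.33 ± 0.61 SE, edgeR adjusted p = 0.00589) and Ifi44, which had 0 and 2 UMIs in WT-Veh, 13 and 10 UMIs in ob/ob-Veh and 0 and 1 UMIs in ob/ob-Rosi. These 3 genes passed the filter on low counts in that cluster only through ob/ob-Veh, the group where they were high, as Ifi44 did in PVM-like cells, so these calls are a description and no support. The same held for 6 of the 39 and 8 of the 83 calls of the wider list in the 2 comparisons. Oas2 was at 1.67 and 1.54 CPM in WT-Veh, 33.6 and 16.9 CPM in ob/ob-Veh and 1.11 and 1.02 CPM in ob/ob-Rosi, with both ob/ob-Veh libraries above the rest. In ob/ob-Rosi against WT-Veh edgeR called 0 of 774 (45 at an unadjusted p under 0.05), and the lowest adjusted p values were those of the membrane protein gene Ifitm3 in EC-like cells, at 363 and 524 CPM in WT-Veh, 622 and 792 CPM in ob/ob-Veh and 1261 and 1402 CPM in ob/ob-Rosi (log2 difference 1.58 ± 0.36 SE, edgeR adjusted p = 0.163), Ciita in proliferating macrophages (log2 difference 1.94 ± 0.45 SE, edgeR adjusted p = 0.221) and Ifitm2 in EC-like cells (log2 difference 1.04 ± 0.33 SE, edgeR adjusted p = 0.322).

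In eWAT the wider list had 32 of 780 tests called higher and 12 lower in ob/ob-Veh (background 1.78% and 2.19%), and 14 higher and 36 lower after rosiglitazone (background 2.22% and 1.74%). Of these, the 12 lower and the 14 higher made up shares at or below the background. The list had median log2 differences of 0.25 and -0.35, beside -0.01 and 0.01 over all genes. Interferon-gamma-leaning genes made up 14 of the 32, and 15 of the 36 (152 tests), with 2 lower and 1 higher beside them. Effectors had 11 called higher and 4 lower of 347 in ob/ob-Veh (3.17% and 1.15%), and 6 higher and 8 lower after rosiglitazone (1.73% and 2.31%), shares near the background after rosiglitazone. Signalling genes had 6 called higher and 3 lower of 124 in ob/ob-Veh and 3 higher and 12 lower after rosiglitazone. Sensors went the other way, with 0 called higher and 3 lower of 84 in ob/ob-Veh (3.57% lower). After rosiglitazone 4 sensor tests were called higher and 0 lower (4.76% higher). Gbp7, a guanylate-binding protein gene, was at 6.21 and 14 CPM in WT-Veh, 82.3 and 74.8 CPM in ob/ob-Veh and 16 and 11.8 CPM in ob/ob-Rosi in the Ear2 Ccr2 cluster. Both ob/ob-Veh libraries lay above the rest (log2 difference 3.05 ± 0.44 SE, edgeR adjusted p = 9.28e-05 against WT-Veh, and log2 difference -2.41 ± 0.35 SE, edgeR adjusted p = 7.18e-05 after rosiglitazone). Gbp3 in the same cluster was at 6.21 and 5.61 CPM in WT-Veh, 53 and 32.5 CPM in ob/ob-Veh and 7.6 and 9.69 CPM in ob/ob-Rosi (log2 difference 2.75 ± 0.53 SE, edgeR adjusted p = 0.00211), and it passed the filter on low counts there only through ob/ob-Veh, as 3 of the 44 and 4 of the 50 calls did in the 2 comparisons. The chemokine gene Cxcl10 was at 1.41 and 3.97 CPM in WT-Veh, 37.8 and 41.2 CPM in ob/ob-Veh and 3.84 and 0.837 CPM in ob/ob-Rosi in APC-like cells (log2 difference 3.79 ± 0.56 SE, edgeR adjusted p = 0.00306 against WT-Veh) and at 34.8 and 92.6 CPM in WT-Veh, 178 and 206 CPM in ob/ob-Veh and 36.5 and 17.2 CPM in ob/ob-Rosi in the Ear2 Ccr2 cluster (log2 difference -2.72 ± 0.37 SE, edgeR adjusted p = 4.62e-05 after rosiglitazone). Socs1, a feedback inhibitor of cytokine receptors, was at 29.5 and 27.4 CPM in WT-Veh, 93.2 and 89.8 CPM in ob/ob-Veh and 18.3 and 17.1 CPM in ob/ob-Rosi in APC-like cells, with ob/ob-Veh highest (log2 difference -2.34 ± 0.26 SE, edgeR adjusted p = 6.91e-04 after rosiglitazone). Of the ligands, only Ifng in NKT-like cells had enough counts to be tested in eWAT, and it was not called. In ob/ob-Rosi against WT-Veh edgeR called 0 of 950 (56 at an unadjusted p under 0.05), with the lowest adjusted p values in EC-like cells for Ifitm3 (log2 difference 1.13 ± 0.26 SE, edgeR adjusted p = 0.0888), the chemokine gene Cxcl9 (log2 difference -0.96 ± 0.27 SE, edgeR adjusted p = 0.183) and the immunoproteasome gene Psmb10 (log2 difference -0.78 ± 0.25 SE, edgeR adjusted p = 0.314). Ifitm3 was at 674 and 507 CPM in WT-Veh, 943 and 1001 CPM in ob/ob-Veh and 1188 and 1451 CPM in ob/ob-Rosi there.

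The genes most like the members over class-by-library sums were named by Pearson correlation of log2(CPM + 1) with the mean of the 10 members. The sums share libraries, so no test was made. In eWAT, over 72 sums, Iigp1 (r = 0.81), Fas (0.77), Secisbp2l (0.76), Rnf213 (0.76), Arhgef10 (0.75), Xaf1 (0.74), Nbeal1 (0.74), B4galt4 (0.73), Fam131a (0.73) and Fam84b (0.72) led, of which 2 belong to the wider list. In iWAT, over 54 sums, Tapbp (r = 0.85), Rbms1 (0.80), Taok1 (0.79), Ifi44 (0.79), Clec2d (0.78), Cmpk2 (0.78), Zcchc24 (0.77), Ifit3b (0.76), Ids (0.76) and Gsk3b (0.74) led, of which 3 belong to the wider list.

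Summed over all cells of a library, where fewer cells of a class and less RNA per cell cannot be told apart, 2 of 10 members were called higher in eWAT of ob/ob-Veh (background 10.6%), and 4 of 10 lower after rosiglitazone (background 10.1%). Oasl2 was at 11.1 and 17.3 CPM in WT-Veh, 38.8 and 51.5 CPM in ob/ob-Veh and 12.2 and 8.44 CPM in ob/ob-Rosi. The ob/ob-Veh libraries lay above the rest, and Oasl2 was 2.61-fold higher in ob/ob-Veh (log2 difference 1.39 ± 0.27 SE, edgeR adjusted p = 0.0107) and 3.57-fold lower after rosiglitazone (log2 difference -1.83 ± 0.27 SE, edgeR adjusted p = 0.00443). Mesothelial-like cells, the class with the highest Oasl2, made up 1.03 and 1.07% in WT-Veh, 6.47 and 6.39% in ob/ob-Veh and 1.05 and 0.507% in ob/ob-Rosi among the cells of each eWAT library. Their share of its Oasl2 UMIs was 15.6 and 9.18% in WT-Veh, 55.1 and 53.2% in ob/ob-Veh and 19.2 and 17.9% in ob/ob-Rosi, highest in ob/ob-Veh, and its part in the Oasl2 fold was not tested. Without them the sum over the other cells gave Oasl2 at 9.49 and 15.9 CPM in WT-Veh, 19.1 and 26.3 CPM in ob/ob-Veh and 10 and 6.98 CPM in ob/ob-Rosi, with ob/ob-Veh above the rest by a smaller margin. Ifit1 was at 3.87 and 7.59 CPM in WT-Veh, 15.6 and 23.7 CPM in ob/ob-Veh and 5.66 and 3.27 CPM in ob/ob-Rosi and was 2.83-fold higher (log2 difference 1.5 ± 0.37 SE, edgeR adjusted p = 0.0237) and 3.59-fold lower (log2 difference -1.85 ± 0.37 SE, edgeR adjusted p = 0.0128). Ifit2 (2.84-fold lower, log2 difference -1.5 ± 0.38 SE, edgeR adjusted p = 0.027) and Usp18 (2.45-fold lower, log2 difference -1.29 ± 0.39 SE, edgeR adjusted p = 0.0499) were called after rosiglitazone, and the Usp18 call was lost without a filter on low counts. In iWAT, Oasl2 was at 8.95 and 18.8 CPM in WT-Veh, 79.8 and 75.2 CPM in ob/ob-Veh and 16.2 and 13.5 CPM in ob/ob-Rosi and was 5.34-fold higher in ob/ob-Veh (log2 difference 2.42 ± 0.40 SE, edgeR adjusted p = 0.0328), the 1 of 10 called (background 2.92%). After rosiglitazone edgeR called 0 of 10 in iWAT (background 0.349%), with 5 at an unadjusted p under 0.05 and 4 called by DESeq2, and Oasl2 had the lowest adjusted p (log2 difference -2.29 ± 0.39 SE, edgeR adjusted p = 0.0531). Rsad2 was at 12.5 and 22.4 CPM in WT-Veh, 76.9 and 71.5 CPM in ob/ob-Veh and 86.1 and 37.2 CPM in ob/ob-Rosi there, so that ob/ob-Rosi overlapped with ob/ob-Veh. Over both depots and all comparisons 7 calls were made, and leaving out ob/ob-Veh replicate 1 or 2 gave 3 and 1, ob/ob-Rosi replicate 1 or 2 gave 4 and 2, and WT-Veh replicate 1 or 2 gave 13 and 23, as alternatives chosen after seeing the data. In ob/ob-Rosi against WT-Veh edgeR called 0 of 10 in each depot, with 0 in eWAT and 1 in iWAT at an unadjusted p under 0.05 and 0 and 1 called by DESeq2 (backgrounds 0.00631% and 0%). In eWAT all 10 members had an adjusted p of 1, and in iWAT Rsad2 had the lowest (log2 difference 1.84 ± 0.46 SE, edgeR adjusted p = 0.661).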

How the data were processed

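The study measured single-cell RNA by 10x Genomics 3′ v3.1 chemistry in 12 SVF libraries, numbered 1 and 2 in each group and depot by the labels, which do not give the mice per library. The paper describes its plots of single samples as individual mice. It also states that the samples shared a processing batch and were sequenced together. The authors deposited raw UMI counts per gene and cell (31053 genes), and the submitters' processing notes name bcl2fastq 2.19.1.403, Cell Ranger 3.0.2 and mm10. The iWAT matrices were already limited to cells under 22000 UMIs and 25% mitochondrial reads, and the eWAT matrices were not. Cells with 700 to 22000 UMIs, 200 to 6000 genes and at most 25% mitochondrial UMIs were kept. Per depot, 2000 variable genes without the interferon genes, 25 principal components and 20 neighbours gave Leiden clusters (resolution 1; scanpy 1.11.5, Python 3.11.15), named from marker lists. Clusters 15 and 16 of iWAT were joined to the T/NK and APC classes by a marker rule adjusted after the clusters were seen and before groups were compared. Doublets were kept in the main fits. Scrublet's automatic threshold marked 0.201 to 26.3% of cells per library, and an alternative removed the 6.27 to 14.7% with the highest scores, a share scaled to the number of barcodes. Free RNA was not corrected.

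UMIs were summed per class and library with at least 20 cells and fitted with edgeR 4.0.16 (R 4.3.3, limma 3.58.1; TMM, filterByExpr, quasi-likelihood) over the 6 libraries of a depot, leaving 3 residual degrees of freedom, or over all 12 for depot comparisons, with Benjamini-Hochberg adjustment over all genes of a fit. Calls needed an adjusted p of at most 0.05 and a 1.1-fold change. As edgeR's test returns no standard error, each SE was derived as the absolute log2 difference divided by the square root of the quasi-likelihood F statistic. The fits were tested on simulated counts. Fold changes and p-values were printed for members called, or for the member with the lowest adjusted p where none was, for the 3 wider-list genes with the lowest adjusted p per depot and comparison, and the 10 genes most like the members in each depot were named. Of the wider list, Mx2 and Cxcl11 are not used here. The members and lists were chosen with earlier results of these data known. Alternatives were DESeq2 1.42.0, other scaling, filters, clustering, thinning, doublet removal, a replicate block and leaving out each library.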

Additional observations from a re-analysis of the deposited data

Results flagged for a closer look

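Irf7 in PVM-like cells differed between the depots in its response to the ob/ob genotype. The log2 difference of ob/ob-Veh against WT-Veh in iWAT exceeded that in eWAT by 2.05 in the interaction test of the 12-library edgeR fit (SE 0.39, unadjusted p = 0.00025, adjusted p = 0.0439). Irf7 was at 23.9 and 28.7 CPM in WT-Veh and 73.6 and 50.6 CPM in ob/ob-Veh of iWAT, and at 25.6 and 35.4 CPM in WT-Veh and 17 and 15.5 CPM in ob/ob-Veh of eWAT. Both ob/ob-Veh libraries lay above WT-Veh in iWAT and below it in eWAT. The call was lost under 10 of the 18 alternatives, with an excess of 1.72 to 2.38 and no change of sign. No other member passed the threshold of this test. The direction was not particular to Irf7, as every member had the larger difference in iWAT PVM-like cells, and the largest excess was above that of Irf7.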

How the results depend on the processing

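Over 53 called member results and 828 recomputed values, 612 kept direction and call, 216 lost the call and 0 changed direction. The recomputed results were picked because they were called, so their unchanged direction is no support by itself. Scaling by library size alone in place of TMM moved the all-gene median log2 difference by -0.46 to 0.45, and by over 0.1 in 33 of 77 fits. It gave 15 calls in ob/ob-Veh against WT-Veh of iWAT (9 as reported). With DESeq2 that comparison had 19, ob/ob-Rosi against WT-Veh 1 in each depot (0 as reported), the depot differences of the effects 7 (1 as reported) and all cells summed 19 (7 as reported). Without a filter on low counts the counts were 14 and 11 in eWAT (4 for ob/ob-Veh against WT-Veh and 5 for rosiglitazone against vehicle as reported) and 2 for ob/ob-Rosi against WT-Veh, 26, 23 (15 as reported) and 2 in iWAT, 21 for iWAT against eWAT (12 as reported), 19 for the depot differences and 16 for all cells. With cells of at least 1500 UMIs, ob/ob-Veh against WT-Veh had 2 in eWAT, and ob/ob-Rosi against WT-Veh 1 in iWAT. With cells thinned to 700 UMIs, ob/ob-Rosi against ob/ob-Veh of eWAT had 1 and iWAT against eWAT 5. With the interferon genes used to cluster, ob/ob-Rosi against ob/ob-Veh of eWAT had 3. The cause was not tested, and no share of all genes called under these alternatives is given beside the member counts. Leaving out 1 library gave 0 to 9, 2 to 8 and 0 to 1 calls in the comparisons of eWAT (in the order above), 0 to 21, 0 to 24 and 0 to 2 in those of iWAT, 5 to 12 for iWAT against eWAT, 0 to 9 for the depot differences and 1 to 23 for all cells, where a lone library was given the spread of the other groups. The alternatives for all cells were chosen after seeing the data.

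Under a replicate block, the counts were 15, 12 and 2 in the comparisons of eWAT, 18, 20 and 1 in those of iWAT, 15 for iWAT against eWAT, 6 for the depot differences and 7 for all cells. With the block shared by the depots, chosen after seeing the data, the depot counts were 22 and 19. No share of all genes called under either block is given beside these counts. The labels do not say that a number marks a shared mouse, batch or day, so the reported fits have no block, and whether the numbers pair the libraries is not known. Same-numbered libraries deviated together with correlations of -0.096 to 0.32 in eWAT, where all 3 pairs of groups were over 0.1 in 5 of 10 classes, and of -0.12 to 0.60 in iWAT, where this held in 0 of 5. In iWAT the pair of WT-Veh and ob/ob-Rosi was at 0.17 (BC-like) to 0.60 (PVM-like). Pairs with ob/ob-Veh reached at most 0.11 there (EC-like).

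The mean share of cells with UMIs of several members rose without thinning from 0.886 to 3.49% (WT-Veh), 1.27 to 9.13% (ob/ob-Veh) and 0.694 to 2.85% (ob/ob-Rosi) in eWAT, and from 0.710 to 4.67%, 4.71 to 12.1% and 1.32 to 7.07% in iWAT. At 2 in place of 3 members it was 3.08, 5.04 and 2.69% in eWAT and 3.74, 14.3 and 5.79% in iWAT. Mx1 passed the filter on low counts in 4 of 10 classes of eWAT and 3 of 5 of iWAT, and was not tested in the others.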
